A study of Mus musculus with 6 samples.

Results

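The genes described here are those of the mouse major histocompatibility complex (MHC), named H2 on the array, and their partners in antigen presentation. They were taken by gene name, as every name that starts with H2- together with Cd74, Ciita, B2m, Tap1, Tap2, Tapbp, Cd1d1, Mr1, Nlrc5, Cd80 and Cd86. This gave 53 of the 37074 gene names on the array, read by 95 probes. Of these, 31 were class I heavy chain genes, 10 were class II chain genes and 12 were partners or other members, H2-Ke6 being the only other gene of the H2 region. A total of 41 of the 53 genes passed the filter for testing, which asked that each of the 3 arrays of one group or the other read the probe well above background.

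The study asked what changes in osteoclasts, the cells that resorb bone, when the calcium-activated chloride channel gene Ano1 is deleted. Bone marrow cells from 3 Ano1fl/fl mice and 3 Ctsk-Cre;Ano1fl/fl littermates were kept with the osteoclast-inducing cytokine RANKL for 5 days, and total RNA of each culture was hybridised to 1 single-dye Agilent array. Both groups carry Ano1 flanked by loxP sites, and only the second carries Cre recombinase, driven by cathepsin K, so deletion can follow only in cells that use that promoter. Per the methods for such cultures the marrow donors were 6 to 8 weeks old, and the study's reporting form puts most of its mouse lines on a backcrossed C57/BL6 background.

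On the arrays the only probe for Ano1 was below background in all 6 samples, so it cannot check the labels, and each direction below is that of the labels. All 10 osteoclast markers were higher in the group labelled Ctsk-Cre;Ano1fl/fl, with a summed signal of 498900 to 562100 against 146400 to 158900. This is opposite to the direction the study gives for osteoclast marker genes in Ctsk-Cre;Ano1fl/fl mice, so the directions printed here hold only as far as the array labels do. Of the 7 stromal markers, 6 were higher there and none lower, with sums of 54270 to 90360 against 3685 to 4584. For macrophages 1 marker was higher and 3 lower of 8, for neutrophils 1 and 5 of 8, and for T and NK cells 2 and 2 of 6, with sums of 375900 to 420900 against 369000 to 384800, 211900 to 264200 against 314400 to 330500, and 1297 to 1776 against 2829 to 3074. Over all genes tested 51.5% were called in either direction, so the macrophage share lies near that background. In such cultures fewer cells of a type and less RNA per cell cannot be told apart. The part of cell mixture in the differences below was not tested.

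MHC class I molecules are a heavy chain bound to beta-2-microglobulin and show peptides from inside the cell to CD8 T cells. In mice the K, D and L heavy chains are the classical ones, and the Q, T and M genes encode nonclassical relatives with narrower roles. Class II molecules are pairs of an alpha and a beta chain, A or E in mice, that show peptides from endosomes to CD4 T cells. They are assembled with the invariant chain Cd74, loaded by the DM dimer and restrained in loading by the DO dimer, and their genes depend on the coactivator Ciita, as class I genes depend in large part on Nlrc5. Macrophages, the cells from which osteoclasts form, use both classes.

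Promoter stretches are shown because the same letters stand before genes that moved in opposite directions. Promoter windows of 250 bases before to 50 bases after a gene's start were taken from RefSeq (GRCm38.p6), and 35 of the 53 members had one. Class II promoters are known for an X box and, closer to the start, a Y box. Here AACNNATG stood for the core of the X box and ATTGG for that of the Y box, each searched on both strands, and the pair was counted where ATTGG followed on the gene's strand after 10 to 40 bases. The letters and the spacing were chosen with these promoters in view. AACNNATG was found in 8.86% and ATTGG in 37.4% of all 32851 promoters, and the pair in 0.158%. The pair was found in 5 of the 8 class II genes with a window, H2-Ob, H2-Eb1, H2-Eb2, H2-DMb1 and H2-DMb2, and in 0 of 21 class I genes. H2-Aa and H2-Oa held only the second motif at the matching place. The stretches read 5′ to 3′ on the gene's strand, with both motifs in capitals. For H2-DMb2 and H2-Eb2 only 30 bases around the first motif are given, since the window's start lies inside the annotated gene.
H2-Ob, chr17:34238808-34238855, plus strand: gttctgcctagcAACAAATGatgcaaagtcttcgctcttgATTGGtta
H2-Eb1, chr17:34305766-34305815, plus strand: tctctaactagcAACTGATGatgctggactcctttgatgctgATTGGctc
H2-DMb1, chr17:34153087-34153137, plus strand: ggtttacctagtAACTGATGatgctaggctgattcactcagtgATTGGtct
H2-DMb2, chr17:34145117-34145146, plus strand: gtttacctattAACCGATGatgctaggcta
H2-Eb2, chr17:34325534-34325563, plus strand: ctctgaccagcAACTGATGctgctggtgct
H2-Aa, chr17:34287864-34287914, minus strand: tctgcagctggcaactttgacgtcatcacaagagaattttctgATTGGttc
H2-Oa, chr17:34092293-34092343, plus strand: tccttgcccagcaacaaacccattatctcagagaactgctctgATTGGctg

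Class I promoters are known for a site of the NF-kappa B type followed by an interferon-response element. GTTTC followed after any 2 bases by TTC, searched on both strands, was found in 1.73% of all promoters and in 7 of 21 class I genes. GGGGA joined directly to TTCCCC was found in 0.0304% of all promoters, and GGGA joined to TTCCC by any 1 base in 0.359%, each searched on both strands. No stretch can match both. The tighter form was found in 2 of 21 class I genes, and the looser in 1 of 21 and in 1 of 8 class II genes, H2-Aa. The 30 bases that end with the first of these motifs are shown for all 7 class I genes that hold it, with matched motifs in capitals. For H2-K1 and H2-Q7 the start of the window used lies inside the annotated gene. H2-Q4, H2-Q10 and H2-M3 were lower on the Ctsk-Cre;Ano1fl/fl arrays, and H2-K1, H2-D1, H2-Q7 and H2-M2 did not pass the test by their brightest probes.
H2-K1, chr17:34000429-34000458, minus strand: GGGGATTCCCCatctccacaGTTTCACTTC
H2-D1, chr17:35262923-35262952, plus strand: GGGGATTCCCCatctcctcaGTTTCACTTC
H2-Q4, chr17:35379443-35379472, plus strand: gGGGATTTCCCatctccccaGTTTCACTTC
H2-Q10, chr17:35469913-35469942, plus strand: gaggactccccatctccccaGTTTCACTTC
H2-Q7, chr17:35439021-35439050, plus strand: tggggattcccatctccccaGTTTCACTTC
H2-M3, chr17:37270112-37270141, plus strand: attcccccatttcctctgagGTTTCACTTC
H2-M2, chr17:37483688-37483717, minus strand: gaattcctcacaatcctggaGTTTCCCTTC

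Class I and class II genes did not move alike. Of the 20 class I heavy chain genes tested, 10 were lower on the Ctsk-Cre;Ano1fl/fl arrays, 0 were higher and 10 did not pass limma's test at an adjusted p under 0.05. Of the 9 class II chain genes tested, 3 were higher, 1 was lower and 5 did not pass. Over all 20645 genes tested 23.0% were called higher and 28.5% lower, or 51.5% in either direction, so the count of falls in class I lies above its background and the count of rises below it. The median log2 difference was -0.28 over the class I genes and 0.22 over the class II genes, against -0.06 over all genes tested. No tested class I gene was higher at an unadjusted p under 0.05 either. Student's t-test with Benjamini-Hochberg adjustment and limma with a trend and robust variances also gave 0. Averaging all probes of a gene gave 2, H2-M2 and H2-Bl, described with their probes below. Leaving out Ctsk-Cre;Ano1fl/fl replicate 3 gave 1, H2-M10.2, which is not among the 20. It passed the filter only once that array was left out, and was well above background on 0 Ano1fl/fl arrays. The t-test called 7 class I genes lower, 6 of them among the 10 and the other H2-K1, and 2 class II genes higher. By limma the count of class I falls was 6 without Ano1fl/fl replicate 2, Ctsk-Cre;Ano1fl/fl replicate 2 or Ctsk-Cre;Ano1fl/fl replicate 3. It was 14 without Ctsk-Cre;Ano1fl/fl replicate 1. The class I median was -0.18 without Ctsk-Cre;Ano1fl/fl replicate 3, where H2-M10.2 joined the genes counted. The share of all genes called lower was not counted for these fits or for the t-test. The comparison with the background above therefore covers the main fit only. Whether the difference between the classes exceeds chance was not tested.

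**Figure D1:**
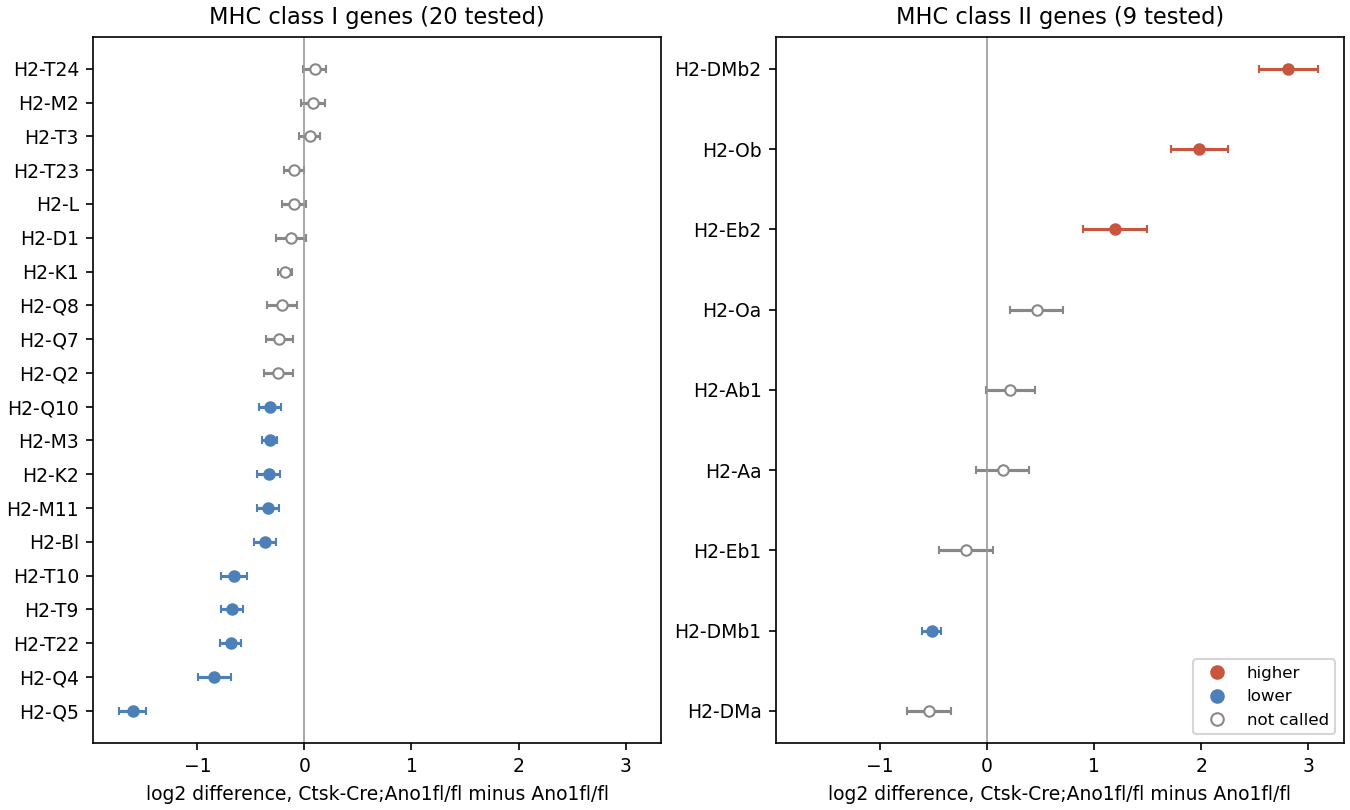
Log2 difference between the 3 Ctsk-Cre;Ano1fl/fl and the 3 Ano1fl/fl arrays for the brightest probe of each tested class I gene (left, 20 genes) and class II gene (right, 9 genes), with bars of 1 standard error from limma. Filled red points were higher and filled blue points lower at an adjusted p under 0.05. The class I points run from -1.60 (H2-Q5) to 0.09 (H2-T24), and the class II points from -0.54 (H2-DMa) to 2.81 (H2-DMb2).

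Of the chains of the A and E molecules, H2-Aa, H2-Ab1 and H2-Eb1 did not pass the test, and H2-Eb2, described with the DO chains, was higher. H2-Aa, the A alpha chain, read 10.99, 10.69 and 10.94 (log2 signal) in the 3 Ano1fl/fl samples and 11.37, 10.45 and 11.24 in the 3 Ctsk-Cre;Ano1fl/fl samples. H2-Ab1, the A beta chain, read 14.61, 14.42 and 14.55 against 14.99, 14.20 and 15.04. In both genes replicates 1 and 3 of the Ctsk-Cre;Ano1fl/fl group were the 2 highest of the 6 and replicate 2 was the lowest, so the groups overlapped. The log2 differences were 0.15 ± 0.25 (SE) for H2-Aa and 0.22 ± 0.23 for H2-Ab1, with limma adjusted p of 0.646 and 0.455. The 3 other probes of H2-Ab1 gave differences of 0.24, 0.27 and 0.44, and none passed. H2-Eb1, the E beta chain, read 14.84, 14.52 and 14.68 against 14.70, 13.91 and 14.86, a difference of -0.19 ± 0.25 (limma adjusted p = 0.546). H2-Ea-ps, the E alpha gene, which RefSeq lists as a transcribed pseudogene and which is known to be defective in C57BL/6 mice, was below background on all 6 arrays.

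Cd74 and Ciita did not pass either. Cd74 read 14.42, 14.18 and 14.30 in Ano1fl/fl and 14.76, 14.03 and 14.73 in Ctsk-Cre;Ano1fl/fl, a log2 difference of 0.21 ± 0.21 (limma adjusted p = 0.436). Ciita read 11.20, 10.55 and 10.97 against 11.08, 10.27 and 11.41, a difference of 0.01 ± 0.31 (limma adjusted p = 0.973). Replicate 2 of the Ctsk-Cre;Ano1fl/fl group was again the lowest of all 6. Of the 3 other probes of Ciita, 1 was not called at 0.15, 1 was lower at -0.93 (limma adjusted p = 0.0461) and 1 was below background.

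H2-DMb2, a beta chain of the DM dimer, had the largest rise among the members' brightest probes. Its probe lies at chr17:34284764-34284823 (mm9, plus strand) and read 5.31, 5.75 and 5.34 in Ano1fl/fl and 8.66, 7.67 and 8.51 in Ctsk-Cre;Ano1fl/fl. The groups stood far apart, and the second array of each group was the one nearest to the other group. The log2 difference was 2.81 ± 0.28, or 7.03-fold (limma adjusted p = 0.000419). The size depends on the background correction of this dim probe, with a difference of 1.81 by normexp and 2.15 from the authors' spot medians, both still called. H2-DMb1, the other DM beta chain, went the opposite way: it read 13.21, 13.18 and 13.26 against 12.74, 12.57 and 12.79, a difference of -0.52 ± 0.09 (limma adjusted p = 0.00358). The groups did not overlap for H2-DMb1 either, and its promoter holds the same pair of motifs as that of H2-DMb2. H2-DMa, the alpha chain that both need, read 10.50, 10.54 and 10.85 against 10.45, 9.69 and 10.12. It was lower on every Ctsk-Cre;Ano1fl/fl array, by a narrow margin on replicate 1, and did not pass at -0.54 ± 0.21 (limma adjusted p = 0.0671). Counted by probe, 7 of the members' 70 tested probes were higher and 24 lower. Of all probes tested 21.8% were higher and 30.6% lower, or 52.4% called in either direction. Groups that do not overlap were common: 64.0% of all genes tested had them, against 22 of the 41 members.

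Both chains of the DO dimer, which is known mainly from B cells and thymic epithelium and holds back DM, were measured. H2-Ob, the DO beta chain, read 7.45, 7.81 and 7.91 in Ano1fl/fl and 9.87, 9.13 and 10.12 in Ctsk-Cre;Ano1fl/fl (probe at chr17:34380481-34380849, mm9, plus strand). No array of one group came within the range of the other, and the log2 difference was 1.98 ± 0.27, or 3.95-fold (limma adjusted p = 0.00147). A further probe of H2-Ob was higher by 2.15 ± 0.26 and another was below background. H2-Oa, the DO alpha chain, read 8.83, 9.06 and 9.14 against 9.64, 8.91 and 9.86, with replicate 2 inside the control range, and did not pass at 0.46 ± 0.25 (limma adjusted p = 0.163). H2-Eb2, a further E beta chain, read 6.76, 6.89 and 7.08 against 8.35, 7.39 and 8.57. All 3 Ctsk-Cre;Ano1fl/fl values were above the controls, with a difference of 1.19 ± 0.30, or 2.29-fold (limma adjusted p = 0.0167). Without Ano1fl/fl replicate 1, Ano1fl/fl replicate 2 or Ctsk-Cre;Ano1fl/fl replicate 1 this call was lost, with limma adjusted p of 0.0567, 0.0517 and 0.0536. The call of H2-Eb2 was also lost by Student's t-test and with no filter on dim probes. The other probe of H2-Eb2 stood above background on 2 Ctsk-Cre;Ano1fl/fl arrays and on 0 of the controls.

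The count of class II rises moved with single arrays. It was 2 without Ano1fl/fl replicate 1, Ano1fl/fl replicate 2 or Ctsk-Cre;Ano1fl/fl replicate 1, where H2-Eb2 was lost, and moved most without Ctsk-Cre;Ano1fl/fl replicate 2. In all 9 class II chain genes tested, and in Cd74 and Ciita, Ctsk-Cre;Ano1fl/fl replicate 2 was the lowest of its group, whereas it was lowest in 32.5% of all genes tested. Its distance below the mean of replicates 1 and 3 ran from -1.06 to -0.20 over these 11 genes, with a median of -0.86. In class I the same distance had a median of -0.11 and in all genes tested a median of 0.00. Without this array 6 of the 9 class II genes were called higher in place of 3, the added ones being H2-Aa at 0.43, H2-Ab1 at 0.49 and H2-Oa at 0.74 (limma adjusted p = 0.0368, 0.0113 and 0.00821), and Cd74 was called as well, at 0.45 (limma adjusted p = 0.0197). H2-Eb1 at 0.10 and Ciita at 0.34 still did not pass (limma adjusted p = 0.568 and 0.256). The median of the 9 class II differences was 0.49 without it, 0.09 without Ctsk-Cre;Ano1fl/fl replicate 1 and 0.07 without Ctsk-Cre;Ano1fl/fl replicate 3. Correlations within a group were 0.9941 to 0.9965 and those between groups 0.944 to 0.9498, ranges that do not show where this array stands. Of all arrays it had the fewest transcript spots well above background, 33480, and the lowest median signal before normalization, 32.1. Whether the array differs as a whole was not tested.

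**Figure D2:**
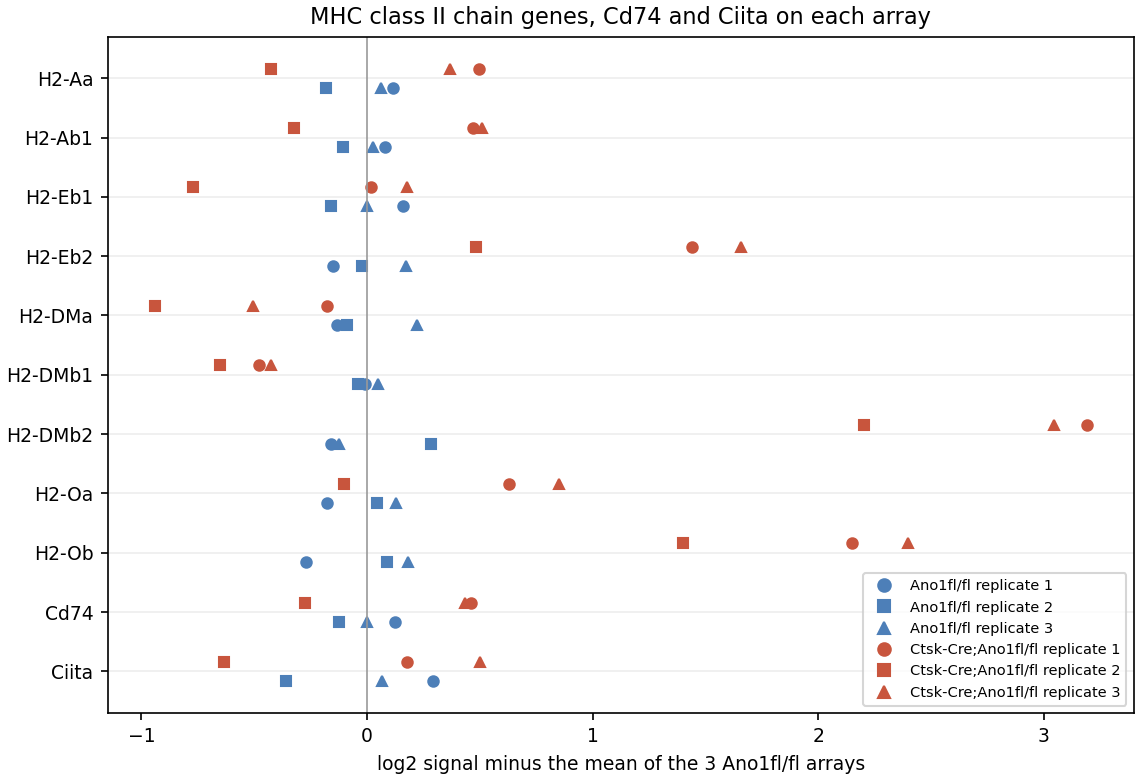
Log2 signal of the 9 tested class II chain genes, Cd74 and Ciita on each array, minus the mean of the 3 Ano1fl/fl arrays, with blue for Ano1fl/fl, red for Ctsk-Cre;Ano1fl/fl and 1 marker shape per replicate number. The red square, replicate 2, is the leftmost red point in all 11 rows, and in H2-DMb2, H2-Ob and H2-Eb2 it still lies to the right of every blue point.

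Markers of B cells were higher on the same arrays as the class II genes that rose. All 6 B cell markers were called higher, 5 of them by log2 differences of 1.83 to 2.85 and well above background on all 6 arrays. The other was well above background on only 1 Ano1fl/fl array, so its size is not given. Their summed signal was 6968, 8028 and 8419 in Ano1fl/fl and 35470, 23070 and 44670 in Ctsk-Cre;Ano1fl/fl, so replicate 2 was again the lowest of its group, as it was in 5 of the 6 markers taken singly. It was also the lowest of its group in 7 of the 8 neutrophil markers. Cd79a and Cd79b, the signalling chains of the B cell receptor, had differences of 2.79 ± 0.26 and 1.83 ± 0.24. Of 7 dendritic cell markers tested, 4 were higher and 1 was lower, against 23.0% and 28.5% of all genes, and the sum over all 9 listed was 25540 to 28270 against 17980 to 18910. Taken singly, replicate 2 was the lowest of its group in 2 of the 9. Xcr1 was below background on all 6 arrays, and Cd209a, not tested, stood above it on 2 Ano1fl/fl arrays and on 0 of the others. Whether B cells or dendritic cells account for any part of the class II differences was not tested.

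**Figure D3:**
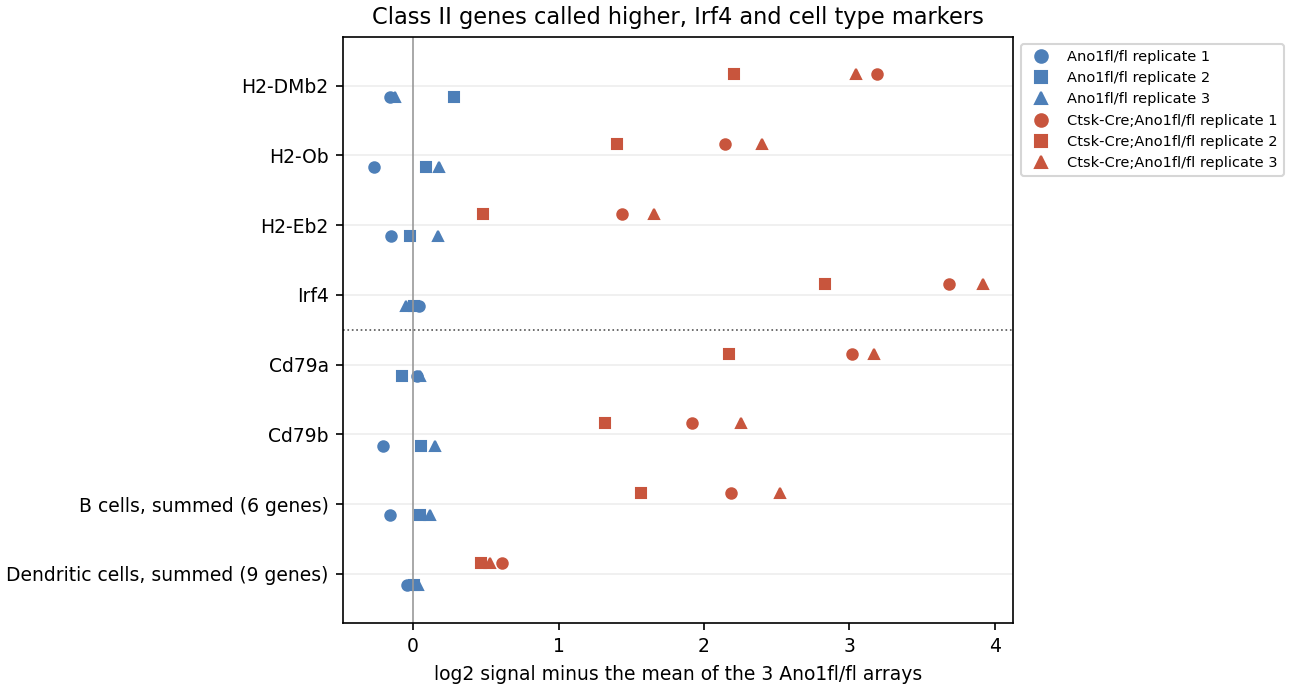
Log2 signal minus the mean of the 3 Ano1fl/fl arrays for the 3 class II genes called higher and the regulator Irf4 (above the dotted line) and for Cd79a, Cd79b and the summed signals of 6 B cell and 9 dendritic cell markers (below it). In every row shown the red square, replicate 2, is the lowest red point, and all red points lie above all blue ones.

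None of the classical class I chains H2-K1, H2-D1 and H2-L passed limma's test in the main fit. H2-K1, the K heavy chain, read 17.71, 17.71 and 17.69 in Ano1fl/fl and 17.57, 17.49 and 17.52 in Ctsk-Cre;Ano1fl/fl. The groups did not overlap, but the difference of -0.18 ± 0.07 missed the threshold in the main fit (limma adjusted p = 0.0655). H2-K1 also missed it in each fit that left out 1 array. Limma with a trend and robust variances and Student's t-test called it lower (adjusted p = 0.00404 and 0.00901). So did normexp, the authors' spot medians, no filter on dim probes and 1 probe a gene in the fit. H2-D1, the D heavy chain, read 16.85, 16.93 and 16.83 against 17.05, 16.59 and 16.58, with replicate 1 above all controls and replicates 2 and 3 below them, a difference of -0.13 ± 0.14 (limma adjusted p = 0.474). H2-L, which C57BL/6 mice are known to lack, gave -0.10 ± 0.11 (limma adjusted p = 0.483). H2-K2, a transcribed pseudogene in RefSeq, had a fall of 0.34 ± 0.11 (limma adjusted p = 0.0369), which no longer passed in 5 of the 6 fits that left out 1 array each. Nor did it pass by Student's t-test (adjusted p = 0.0659) or with no filter on dim probes (limma adjusted p = 0.0626).

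Some class I probes resemble each other closely, and how far each reads its own gene was not tested. The probes of H2-L and H2-T23 share 48 of 54 overlapping bases, those of H2-L and H2-Q8 32 of 37, and those of H2-K2 and H2-Q7 31 of 36, as read from the probe sequences of the array files. One stretch of 30 bases is shown because it is common to 3 of these probes and differs at 3 positions, which are in capitals. No genome of the array's build was used, so matches elsewhere were not counted.
H2-L: CcatcAttggagctgtggtggCttttgtga
H2-T23: TcatcCttggagctgtggtggCttttgtga
H2-Q8: CcatcAttggagctgtggtggAttttgtga
These 3 probes gave differences of -0.10, -0.10 and -0.21, and none was called.

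The falls in class I were largest in nonclassical genes. H2-Q5, a transcribed pseudogene in RefSeq, read 14.84, 14.87 and 14.81 in Ano1fl/fl and 13.37, 12.97 and 13.37 in Ctsk-Cre;Ano1fl/fl (probe at chr17:35532392-35532451, mm9, plus strand). The groups stood far apart, and the difference of -1.60 ± 0.13, a 3.04-fold fall (limma adjusted p = 0.000184), made it the only class I gene past 2-fold by its brightest probe. Over all genes tested 7.19% were called lower by more than 2-fold and 9.89% higher by more than 2-fold. H2-Q4, which encodes the Qb-1 molecule, read 14.21, 14.13 and 14.11 against 12.97, 13.47 and 13.49, a difference of -0.84 ± 0.15 (limma adjusted p = 0.00467). Here replicate 1 was the lowest of its group. H2-Q10, whose product is secreted, was lower at -0.32 ± 0.10 (limma adjusted p = 0.0369), with its 3 other probes at -0.24, -0.72 and -0.96, of which the last pair was called. The call of the brightest probe was lost in 4 of the 6 fits that left out 1 array. It was also lost by Student's t-test (adjusted p = 0.0621) and with no filter on dim probes (limma adjusted p = 0.0591). H2-Q2, H2-Q7 and H2-Q8 were not called by their brightest probes, at -0.25, -0.23 and -0.21. For H2-Q7, the Qa-2 antigen, both other probes were lower, at -0.42 and -0.86.

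Among the T genes, H2-T22, whose product is a ligand of gamma delta T cells, H2-T10, a transcribed pseudogene in RefSeq, and H2-T9 fell. H2-T22 read 14.14, 14.25 and 14.32 against 13.61, 13.40 and 13.64, a difference of -0.69 ± 0.10 (limma adjusted p = 0.00177). The differences were -0.66 ± 0.12 for H2-T10 and -0.68 ± 0.11 for H2-T9 (limma adjusted p = 0.00528 and 0.00263). All 3 had groups that did not overlap, were lowest on Ctsk-Cre;Ano1fl/fl replicate 2 and kept their call in every fit that left out 1 array. They are close relatives, so how far each probe reads its own gene is uncertain. H2-T23, the Qa-1 antigen, was not called at -0.10 ± 0.09 by its brightest probe and was lower at -0.54 ± 0.16 by the other. H2-T24 at 0.09 and H2-T3, the thymus leukemia antigen, at 0.05 were not called.

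H2-M3, which presents N-formylated peptides, read 12.50, 12.57 and 12.55 against 12.18, 12.20 and 12.27. Its fall of -0.32 ± 0.07 was small against a narrow spread (limma adjusted p = 0.00996), and the groups did not overlap. H2-M11 had a fall of 0.34 ± 0.10 (limma adjusted p = 0.0295), which no longer passed in 4 of the 6 fits that left out 1 array, by Student's t-test or by limma with a trend and robust variances. By normexp and from the authors' spot medians it was -0.17 and -0.19 and did not pass. The other 9 H2-M genes other than H2-M2 were not tested: 8 were below background on all 6 arrays and H2-M10.2 rose above it on 2 arrays, both of the Ctsk-Cre;Ano1fl/fl group. H2-Q1 and H2-T18 were below background on all 6 arrays as well.

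**Figure D4:**
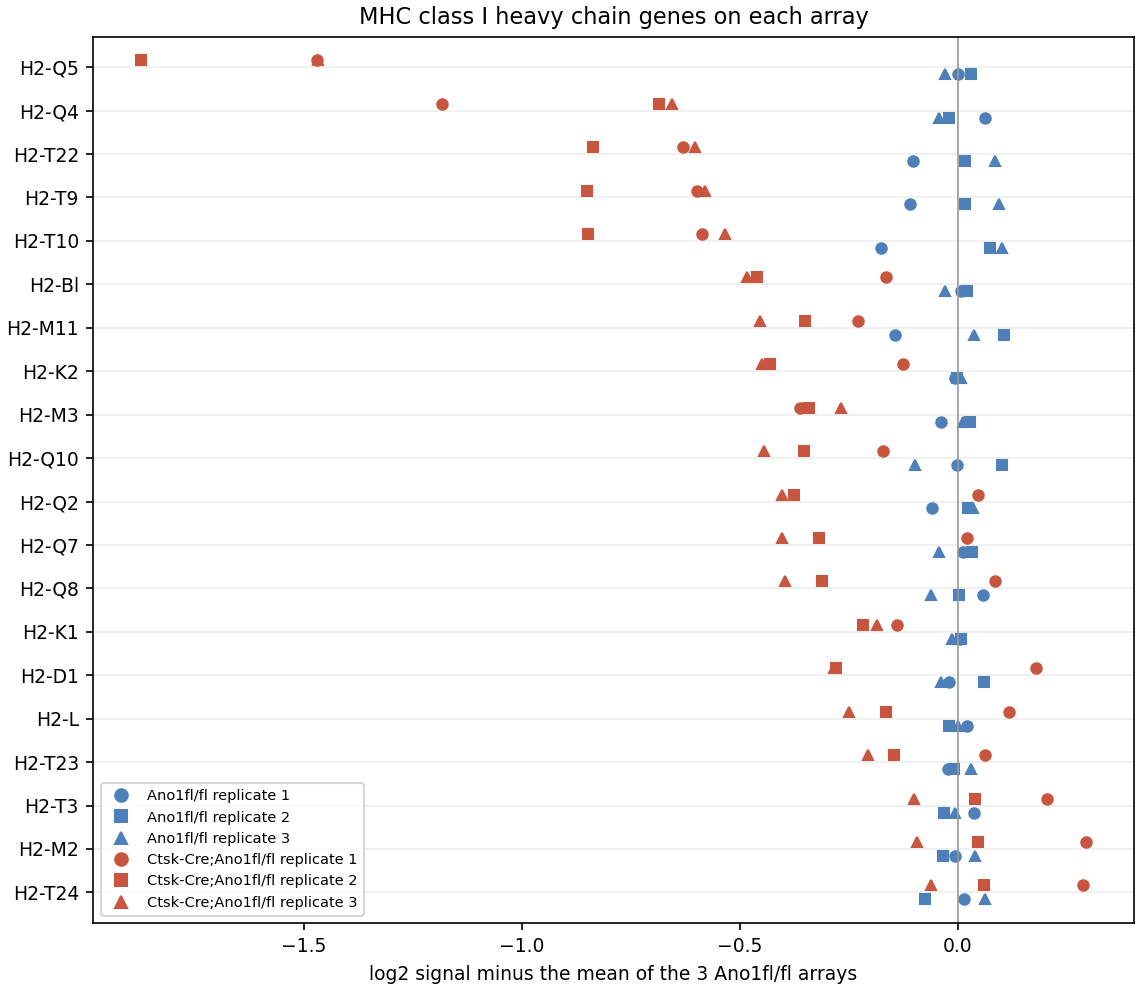
Log2 signal of the 20 tested class I heavy chain genes on each array, minus the mean of the 3 Ano1fl/fl arrays, with blue for Ano1fl/fl, red for Ctsk-Cre;Ano1fl/fl and 1 marker shape per replicate number. In H2-Q5, H2-Q4, H2-T22, H2-T9 and H2-T10 all red points lie at or below -0.53, while in H2-D1, H2-L and H2-T23 the red circle, replicate 1, lies above the blue points.

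Probes of the same gene disagreed most in H2-M2. Its brightest probe read 13.64, 13.61 and 13.68 against 13.94, 13.69 and 13.55 and was not called at 0.08 ± 0.11 (limma adjusted p = 0.561). Its other probe (chr17:37618042-37618101, mm9, minus strand), designed on a different transcript record, read 8.65, 8.66 and 9.15 against 13.36, 13.76 and 13.31. That is a difference of 4.65 ± 0.18, larger than that of any other probe of the members, with no overlap between the groups (limma adjusted p = 1.7e-05). H2-Bl, a transcribed pseudogene in RefSeq, was lower by its brightest probe at -0.37 ± 0.11 and called higher by the other, which was well above background on only 1 of the 3 Ano1fl/fl arrays, so its size is not given. The fall by the brightest probe passed in only 1 of the 6 fits that left out 1 array, that without Ctsk-Cre;Ano1fl/fl replicate 1, and missed the threshold by Student's t-test. That second H2-Bl probe shares 49 of 58 bases with an H2-Q10 probe, which was lower at -0.72. With all probes of a gene averaged, H2-M2 and H2-Bl were both called higher, which for H2-Bl rests on the probe that is near background in the controls.

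**Figure D5:**
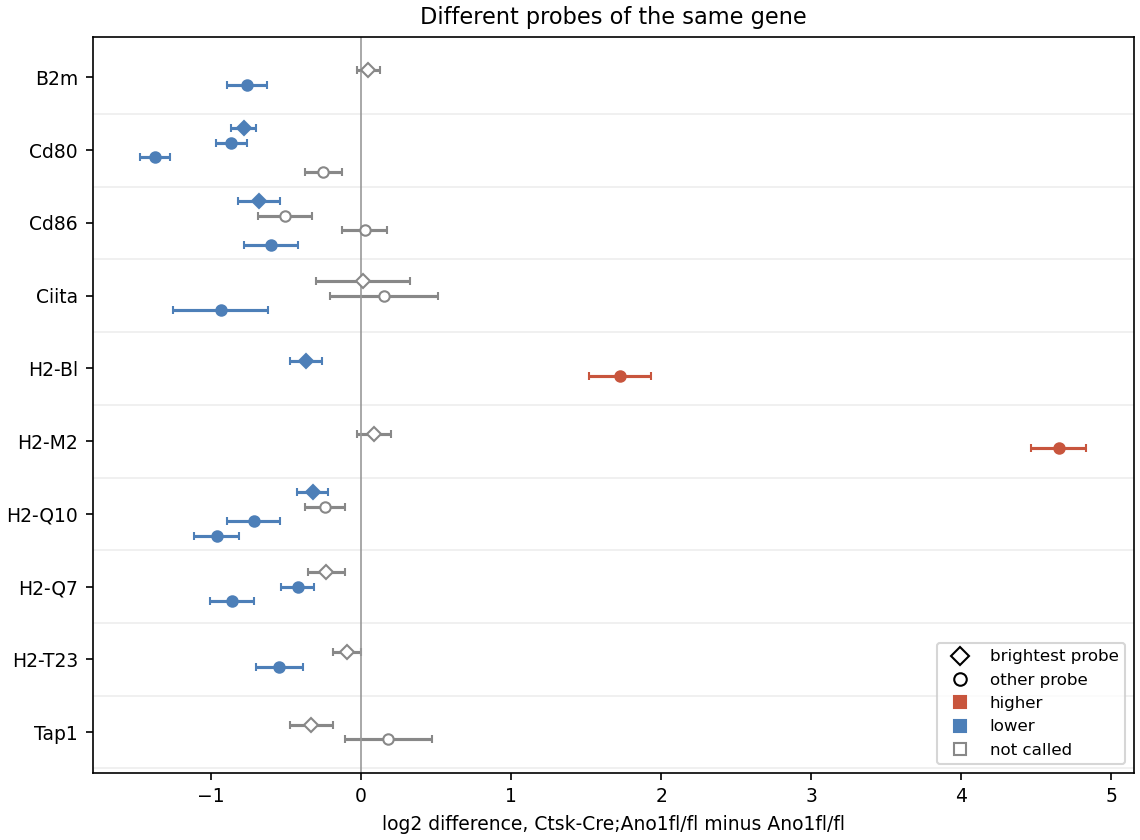
Log2 difference between the groups for each tested probe of 10 members, with bars of 1 standard error from limma. Diamonds are the brightest probe of a gene, and filled red and blue points were called higher and lower. The second probe of H2-M2 lies at 4.65, far to the right of its diamond at 0.08, that of H2-Bl lies right of its diamond at -0.37 but is near background in the controls, and that of B2m at -0.76 lies to the left of its diamond at 0.05.

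Of the 5 partners of class I, 1 was lower and 4 did not pass, which is not above the 28.5% of all genes called lower. B2m, the light chain of every class I molecule, read 16.98, 16.90 and 16.85 against 16.94, 16.98 and 16.96 and did not differ beyond its spread (0.05 ± 0.07, limma adjusted p = 0.603). Its other probe, designed on a different transcript record upstream of the first on the genome, was lower at -0.76 ± 0.13 (limma adjusted p = 0.00413). Tap1 and Tap2, which carry peptides into the endoplasmic reticulum, were not called at -0.33 ± 0.14 and 0.12 ± 0.10 (limma adjusted p = 0.0965 and 0.347). The other probe of Tap1 gave 0.18 and was not called. Tapbp, the loading factor tapasin, had groups that did not overlap and missed the threshold at -0.23 ± 0.09 (limma adjusted p = 0.0804). Its other probe gave 0.10 with overlapping groups and was not called. Nlrc5, the class I coactivator, was lower: it read 12.36, 12.59 and 12.74 against 12.19, 11.97 and 12.23, a difference of -0.43 ± 0.13 (limma adjusted p = 0.0275). Replicate 1 of the controls lay only a little above the highest Ctsk-Cre;Ano1fl/fl value, the other probe gave -0.01, and the call was lost in 4 of the 6 fits that left out 1 array.

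Of the class I-like genes, Mr1, which presents vitamin B metabolites, was higher at 0.36 ± 0.10 by its brightest probe (limma adjusted p = 0.0221), while a further probe gave -0.02 and the call was lost in 4 of the 6 fits that left out 1 array. Cd1d1, which presents lipids to NKT cells, was not called at 0.24 ± 0.12 (limma adjusted p = 0.139). H2-Ke6, an enzyme gene of the region with no part in presentation, stayed at 0.04 ± 0.07 (limma adjusted p = 0.677).

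Both B7 ligands of CD28, which give T cells their second signal, fell. Cd80 read 11.92, 11.72 and 11.82 in Ano1fl/fl and 11.00, 11.11 and 11.00 in Ctsk-Cre;Ano1fl/fl. The groups were well apart, with a difference of -0.78 ± 0.08, or a 1.72-fold fall (limma adjusted p = 0.000609). The 3 other probes of Cd80 gave -0.25, -0.87 and -1.38, and the last pair was called lower. Cd86 read 10.54, 10.82 and 11.07 against 10.09, 10.08 and 10.22, a difference of -0.68 ± 0.14 (limma adjusted p = 0.00779). Its 3 other probes gave 0.02, -0.50 and -0.60, and only the last of these was called. With the 4 probes averaged the difference was -0.44 and missed the threshold (limma adjusted p = 0.0503).

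Of 10 other ligands and adhesion molecules met by T cells, 5 were higher, 2 lower and 3 not called, with a median of 0.49, against 23.0% higher and 28.5% lower over all genes. The largest rises were those of Cd276 at 1.18 ± 0.15, of Cd274, the PD-L1 ligand, at 1.12 ± 0.11, and of the adhesion molecule Icam1 at 0.63 ± 0.08. Tnfsf4, the OX40 ligand, fell by 1.25 ± 0.21 and Cd48 by 0.36 ± 0.07. Each of these 5 passed limma at an adjusted p of at most 0.00834 with groups that did not overlap.

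Of 14 genes of class I loading and peptide supply tested, 5 were higher, 4 lower and 5 not called, with a median of -0.05 against -0.06 over all genes. With 23.0% of all genes called higher and 28.5% lower, the list's share of falls lies near its background. Calr, the chaperone calreticulin, rose by 0.67 ± 0.13, the proteasome activator Psme3 by 0.56 ± 0.16 and the constitutive proteasome subunit Psmb6 by 0.33 ± 0.07. Uba7, the enzyme that activates the ubiquitin-like protein Isg15, fell by 0.61 ± 0.10, the peptide-trimming enzyme Erap1 by 0.44 ± 0.08 and the immunoproteasome subunit Psmb10 by 0.29 ± 0.09. Of the other immunoproteasome subunits, Psmb9 was lower at -0.52 ± 0.18 with overlapping groups, and Psmb8 was not called at -0.25 ± 0.10 (limma adjusted p = 0.063).

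Of 13 genes of class II processing and trafficking tested, 4 were higher and 0 lower, with a median of 0.14, against 23.0% higher and 28.5% lower over all genes. The largest 3 rises were those of the tetraspanins Cd9, Cd63 and Cd82, at 0.57 ± 0.14, 0.46 ± 0.09 and 0.44 ± 0.08. Cd53, a further tetraspanin, rose by 0.30 ± 0.08, and Cd37, another, was not called at 0.00 ± 0.09 (limma adjusted p = 0.974). The proteases that cut antigen and invariant chain, Ctss, Ctsl, Ctsb, Ctsd and Lgmn, were not called, with differences of -0.10 to 0.21.

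Of 22 regulators of MHC genes, 8 were higher, 7 lower and 7 not called, with a median of 0.02, and the share of falls lies near the 28.5% of all genes called lower, while 23.0% were higher. Irf4, a transcription factor of lymphocytes and some myeloid cells, read 7.22, 7.19 and 7.14 in Ano1fl/fl and 10.86, 10.01 and 11.10 in Ctsk-Cre;Ano1fl/fl. Its rise of 3.48 ± 0.27 was the largest of the list (limma adjusted p = 0.000176), and replicate 2 was the lowest of its group, as for the class II genes. Socs1, an inhibitor of cytokine signalling, rose by 1.26 ± 0.14 and the kinase Jak2 by 0.82 ± 0.09. Ifngr1, a chain of the receptor for interferon gamma, which is known to raise both classes, fell by 1.19 ± 0.08, Rfxap, a subunit of the complex that binds the X box, by 0.64 ± 0.08 and Irf2 by 0.55 ± 0.09. Irf1, which acts on class I promoters, was lower at -0.39 ± 0.11, and Irf8 at 0.23 ± 0.18 was not called (limma adjusted p = 0.333).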

How the data were processed

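Single-dye (Cy3) Agilent SurePrint G3 mouse arrays of 3 Ano1fl/fl and 3 Ctsk-Cre;Ano1fl/fl cultures were used, all on 1 slide in 1 scan. Per the file headers and the submitters' processing notes, the deposited intensity values are background-corrected processed signals from Agilent Feature Extraction 10.7.1.1, with probe positions on mm9. The authors' series table holds the raw median intensity of each spot on a linear scale, with no quantile step visible. The quantile normalization that the methods name was applied here to log2 signals in limma 3.58.1 (R 4.3.3, with the data.table package at version 1.17.8), after outlier spots were set to missing. Spots of 1 probe were averaged after that step. Of 59305 transcript spots on each array, 33480 to 34951 were well above background and none was saturated, and 6 arrays limit the precision. A total of 31848 of 56605 probes passed the filter and were fitted with lmFit and eBayes, with Benjamini-Hochberg adjustment over all of them. A gene was counted by its brightest probe, the one with the highest mean over the 6 arrays. All members tested were named, and of each pathway list the 3 largest rises and falls that passed with groups that did not overlap. Psmb8, Psmb9, the 5 proteases, Cd37, Cd53, Irf1, Irf8, Cd79a, Cd79b, Xcr1 and Cd209a were picked after their values were seen. The members and the 4 pathway and 7 marker lists were chosen with earlier results of these data known. The fit was tested on simulated data. Alternatives covered scaling, background correction, dim probes, probes of a gene, Student's t-test, a replicate block and leaving out each array. Figures were drawn with Python 3.11.15, pandas 2.3.3 and matplotlib 3.10.9.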

Additional observations from a re-analysis of the deposited data

How the results depend on the processing

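The median of all genes tested was -0.06, and moved to -0.12 with 75th percentile scaling and -0.30 with no normalization between arrays, so the class medians below are to be read against it. With no normalization the class I median was -0.54 and the class II median -0.07. With all probes of a gene averaged, 2 class I genes were higher, H2-Bl turned to 0.68 and B2m to -0.35. Class II had 2 genes lower in place of 1 with 75th percentile scaling, no normalization, normexp, the series table and limma with a trend and robust variances. The added gene was H2-DMa. Among calls over 2-fold, class I had 1 gene lower, class II 0, and 5422 probes were called in place of 16690. With 1 probe a gene in the fit 10826 were called. With no filter on dim probes 9 class I genes were lower, 8 of them called in the main fit, and 2 class II genes higher. Leaving out 1 array in turn gave 0 to 1 class I genes higher, 6 to 14 lower and class I medians of -0.37 to -0.18. The count of falls was 6 without Ano1fl/fl replicate 2, Ctsk-Cre;Ano1fl/fl replicate 2 or Ctsk-Cre;Ano1fl/fl replicate 3. The single rise came without the last of these and was H2-M10.2. That gene, not tested in the main fit, also entered the median of -0.18. For class II it gave 2 to 6 genes higher (6 without Ctsk-Cre;Ano1fl/fl replicate 2), 1 to 2 lower (2 without Ctsk-Cre;Ano1fl/fl replicate 1) and medians of 0.07 to 0.49, and 13812 to 14926 probes were called. The replicate numbers share only a number, since deviations of same-numbered arrays correlated at -0.022, -0.085 and -0.094. With a replicate block 7 class I genes were lower and 3 class II genes higher, 14150 probes were called, and H2-K2, H2-M11, H2-Q10 and Mr1 lost their call. The cause of these shifts was not tested.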
